A study of Mus musculus with 39 samples.

Results

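The gp130 cytokines are small secreted proteins that share one signalling receptor chain, gp130, the product of *Il6st*. The genes described are 9 of the 55573 in the deposited count tables, chosen by symbol as 6 ligands (*Il6*, *Il11*, *Lif*, *Cntf*, *Clcf1* and *Osm*) and 3 receptor chains (*Il6st*, *Lifr* and *Osmr*). They were followed in bulk RNA sequencing of the endoneurium, the tissue inside the perineurium of the sciatic nerve which holds axons together with Schwann cells, fibroblasts, macrophages and blood vessels. One sciatic nerve of each mouse was crushed, and the distal part (injured) was collected together with the uncrushed contralateral nerve (healthy) 2 or 4 weeks post crush (wpc). Both genotypes carried floxed *Lepr* alleles on a C57BL/6 background and were 2 to 4 months old per the study's methods. Control mice (*Lepr*-ctrl) were Lepr fl/fl without a recombinase, and *Lepr*-cKO mice were Lepr fl/fl::Dhh-Cre, in which Cre is driven by *Dhh* regulatory sequences. Per the study, Cre removes a part of the leptin receptor gene selectively from Schwann cells during embryonic development. Whether other endoneurial cells keep it was not tested here. The leptin receptor, like gp130, signals through JAK kinases and STAT3. At 2 wpc there were 5 healthy and 5 injured *Lepr*-ctrl nerves and 6 healthy and 5 injured *Lepr*-cKO nerves. At 4 wpc there were 5 healthy and 4 injured nerves of each genotype. The 39 libraries came from 22 animals, 17 of them with both nerves, and the animals of 2 and 4 wpc were different mice.

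Ligands of this family bring gp130 together with a signalling partner, some of them after binding a chain of their own. IL-6 and IL-11 signal through pairs of gp130, LIF and CNTF through gp130 with the LIF receptor (*Lifr*), and oncostatin M (*Osm*) through gp130 with the oncostatin M receptor (*Osmr*). The paired chains activate JAK kinases, which phosphorylate STAT3, and STAT3 in turn induces *Socs3*, a brake on the same receptor. In peripheral nerve CNTF is known as a product of myelinating Schwann cells, and LIF and IL-6 as injury-associated factors for neurons and glia. These are statements of background and not results of the libraries analyzed here.

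The start sites of the ligands are shown because *Lif*, *Il11* and *Cntf* fell together after injury while *Il6* rose at 2 wpc. Windows from 250 bases before to 50 bases after a start site were taken from RefSeq on GRCm38.p6, which held 9 windows for 7 of the 9 genes. *Clcf1* and *Osm* had none. Each window was searched on both strands for 4 motifs, AP-1 (TGANTCA), STAT (TTCNNNGAA), the cyclic AMP response element (TGACGTCA) and the TATA box (TATAAA). The capitals in the 4 windows that follow mark AP-1 matches, and the sequences read 5′ to 3′ on the strand of the gene. The window of *Il11* belongs to the inner one of its 2 start sites.
Lif, chr11:4257318-4257617, plus strand: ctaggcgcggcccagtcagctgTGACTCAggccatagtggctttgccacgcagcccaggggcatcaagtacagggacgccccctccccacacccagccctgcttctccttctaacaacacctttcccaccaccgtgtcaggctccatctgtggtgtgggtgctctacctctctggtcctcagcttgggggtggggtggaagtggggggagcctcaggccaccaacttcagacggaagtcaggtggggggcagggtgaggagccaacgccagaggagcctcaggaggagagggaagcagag
Il11, chr7:4778092-4778391, minus strand: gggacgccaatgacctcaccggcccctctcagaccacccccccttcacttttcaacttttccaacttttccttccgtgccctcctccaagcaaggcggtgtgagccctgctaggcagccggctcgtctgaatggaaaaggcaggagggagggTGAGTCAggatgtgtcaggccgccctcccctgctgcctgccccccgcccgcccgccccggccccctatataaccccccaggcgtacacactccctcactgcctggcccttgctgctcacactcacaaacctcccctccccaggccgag
Cntf, chr19:12765583-12765882, minus strand: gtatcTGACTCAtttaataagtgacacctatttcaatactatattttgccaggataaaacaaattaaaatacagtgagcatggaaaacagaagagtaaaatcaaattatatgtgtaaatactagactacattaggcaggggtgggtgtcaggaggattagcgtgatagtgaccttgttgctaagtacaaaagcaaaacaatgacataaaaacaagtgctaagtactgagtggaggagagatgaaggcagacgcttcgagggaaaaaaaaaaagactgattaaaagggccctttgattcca
Il6, chr5:30012864-30013163, plus strand: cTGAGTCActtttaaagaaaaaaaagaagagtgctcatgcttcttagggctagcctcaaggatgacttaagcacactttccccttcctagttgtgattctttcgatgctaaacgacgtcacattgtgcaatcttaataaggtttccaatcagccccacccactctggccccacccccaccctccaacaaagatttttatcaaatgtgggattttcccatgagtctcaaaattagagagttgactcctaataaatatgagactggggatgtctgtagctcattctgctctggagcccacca
With the start base counted as 0, the match lay at -228 to -222 in *Lif*, at -98 to -92 in *Il11*, at -245 to -239 in *Cntf* and at -249 to -243 in *Il6*. A further AP-1 match lay at 3 to 9 in the window of *Osmr*. The outer window of *Il11* and those of *Il6st* and *Lifr* held none. Of all 32851 windows in the table, 7.81% held an AP-1 match. The other motifs had no match in the windows of these genes and were held by 8.3% (STAT), 1.79% (cyclic AMP response element) and 13.6% (TATA box) of all windows, and no matches of different motifs overlapped. A match is a run of letters and not a measured binding site.

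Total counts per library were 10905806 to 45016322 (median 27752451), and the smallest library of all was an injured *Lepr*-ctrl nerve at 4 wpc. The 5 general Schwann cell markers were detected in every library. Levels are given as CPM, the count divided by the library size of the tested genes after TMM scaling and given per 1e6, and levels compared between genes as RPKM, the CPM per kilobase of exon. Differences are log2 fold changes with their standard error (SE) from edgeR. *Lepr* itself was at 31.7 to 68.2 CPM in injured *Lepr*-ctrl and 31.0 to 121.0 CPM in injured *Lepr*-cKO nerves at 2 wpc, and since these counts cover the whole gene and only the first exon is deleted, they do not check the deletion. One injured *Lepr*-cKO library at 2 wpc held 32800 CPM over 6 skeletal muscle genes, against at most 24.5 CPM in any library of the other 7 groups. A gene was called when the Benjamini-Hochberg adjusted p was under 0.05 and the absolute log2 fold change above 1, the limits of the study's methods.

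**Figure D1:**
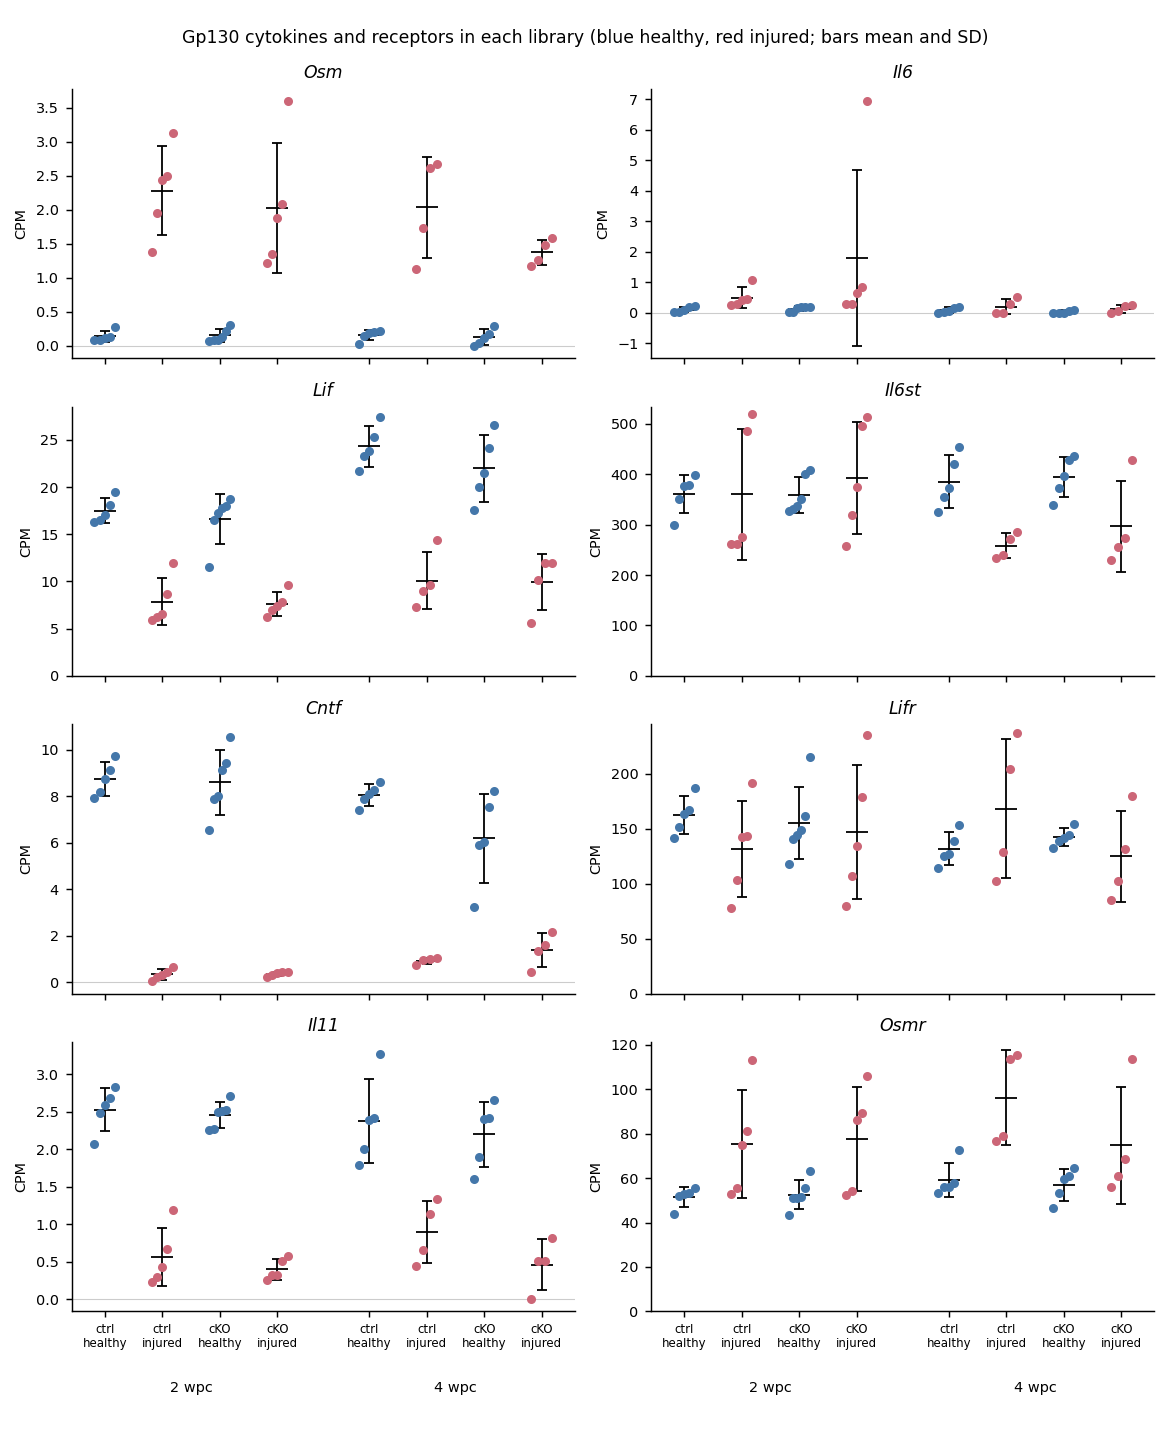
CPM (linear vertical axes) of the 8 tested genes in each library, with 1 panel per gene, 8 groups along the horizontal axis, points for libraries and bars for the mean and SD. *Cntf*, *Il11* and *Lif* lay lower in every injured group than in its healthy group and *Osm* lay higher, with no overlap, whereas *Il6st* and *Lifr* overlapped in most. How many of all tested genes show no overlap was not counted.

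Per kilobase, *Il6st* and *Lifr* were the most abundant members among those compared. In healthy *Lepr*-ctrl nerves at 2 wpc *Il6st* was at 32.5 ± 3.41 RPKM (SD, n = 5), *Lifr* at 15.1 ± 1.60 RPKM and *Osmr* at 4.26 ± 0.370 RPKM. *Lif*, at 4.02 ± 0.307 RPKM, differed from *Osmr* by less than the spread between libraries. *Il11* followed at 1.21 ± 0.138 RPKM. *Osm* at 0.0612 ± 0.0337 RPKM and *Il6* at 0.0457 ± 0.0364 RPKM were lowest and overlapped. In injured *Lepr*-ctrl nerves at 2 wpc the order of the ligands was different, with *Lif* at 1.81 ± 0.581 RPKM, *Osm* at 1.00 ± 0.287 RPKM, *Il11* at 0.268 ± 0.186 RPKM and *Il6* at 0.208 ± 0.140 RPKM (n = 5 each). *Lif* and *Osm* overlapped at their edges there, and *Il11* and *Il6* over most of their range. *Cntf* is left out of this order because 847 of its 1073 exon bases are also exon of *Zfp91* on the same strand, so that its counts may come from the remaining bases alone.

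Injury changed the ligands more than the receptors. Of the 8 tested members, 5 were called in *Lepr*-ctrl nerves at 2 wpc, 2 higher (*Osm* and *Il6*) and 3 lower (*Cntf*, *Il11* and *Lif*), against 34.1% of all 18442 tested genes called in either direction. The same 5 were called in *Lepr*-cKO nerves at 2 wpc, where the background was 34.3%. At 4 wpc 4 members were called in each genotype, *Osm* higher and *Cntf*, *Il11* and *Lif* lower, with backgrounds of 36% in *Lepr*-ctrl and 27.6% in *Lepr*-cKO. In the lower direction alone the backgrounds were 14.3%, 13.4%, 15.9% and 10.8% in the 4 comparisons in this order, and in the higher direction 19.8%, 20.9%, 20.1% and 16.8%. None of the 3 receptor chains was called in any of the 4 comparisons by edgeR or DESeq2. The median log2 fold change of the 8 members was -0.15, 0.02, -0.11 and -0.30 in the 4 comparisons in this order, beside 0.08, 0.10, 0.02 and 0.06 over all tested genes. Where groups are said not to overlap, the share of all tested genes without overlap was not counted. Such statements describe the values and do not set a member apart from other genes. In bulk tissue, fewer cells of a type and less RNA per cell cannot be told apart. The p-values rest on the spread between libraries within groups, estimated once over all 8 groups, with both nerves of an animal taken as independent.

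**Figure D2:**
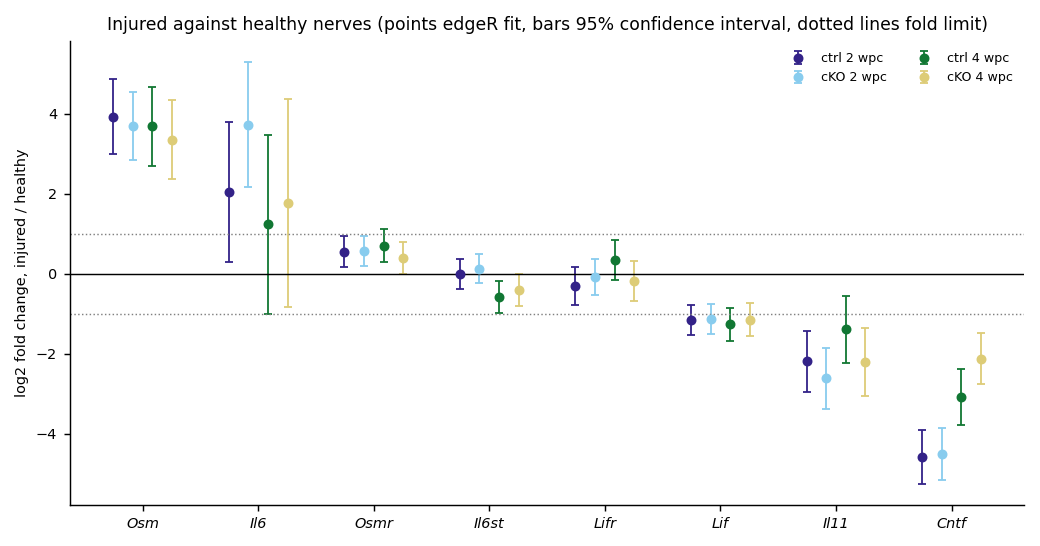
Log2 fold change of injured against healthy nerves (vertical axis) for the 8 tested genes (horizontal axis) in 4 comparisons by genotype and time, with points for the edgeR estimate, bars for its 95% confidence interval and dotted lines for the fold limit. *Osm* lay at 3.36 to 3.93, *Cntf* at -4.58 to -2.13, and the receptors within the fold limit.

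*Cntf* (ENSMUSG00000079415, chromosome 19, 12763660 to 12765632, minus strand) encodes ciliary neurotrophic factor, a survival factor for motor neurons that lacks a signal peptide. In healthy *Lepr*-ctrl nerves at 2 wpc the 5 libraries held 7.93, 8.19, 8.74, 9.12 and 9.75 CPM. The 5 injured ones held 0.0475, 0.220, 0.343, 0.457 and 0.677 CPM, that is 1 to 21 counts. The groups did not overlap, and the log2 fold change was -4.58 (SE 0.331, adjusted p = 7.69e-14). The *Lepr*-cKO nerves at 2 wpc gave 6.57 to 10.6 CPM (median 8.58) in 6 healthy and 0.257 to 0.461 CPM (median 0.399) in 5 injured libraries, with a log2 fold change of -4.51 (SE 0.324, adjusted p = 5.44e-14).

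At 4 wpc *Cntf* was less far below the healthy nerves. The 5 healthy *Lepr*-ctrl libraries held 7.41, 7.88, 8.12, 8.28 and 8.64 CPM and the 4 injured ones 0.751, 0.956, 1.00 and 1.05 CPM. All 4 injured values at 4 wpc were thus above all 5 at 2 wpc. The log2 fold change was -3.09 (SE 0.343, adjusted p = 1.7e-09). In *Lepr*-cKO mice the healthy libraries held 3.24, 5.90, 6.03, 7.55 and 8.23 CPM and the injured ones 0.438, 1.37, 1.63 and 2.17 CPM, with a log2 fold change of -2.13 (SE 0.317, adjusted p = 9.23e-07). The library with the highest injured value also had the highest summed repair Schwann cell markers of its group, 1149 CPM against a group median of 304 CPM, as well as the highest sums of myelinating Schwann cell markers (75000 against 57140 CPM) and fibroblast markers (9040 against 4667 CPM), and the part of these in the result was not tested. Without this library the log2 fold change was -2.44.

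The difference between the injury effects at 4 and 2 wpc was tested itself. For *Cntf* it was 1.49 on the log2 scale in *Lepr*-ctrl mice (SE 0.456, adjusted p = 0.0344) and 2.39 in *Lepr*-cKO mice (SE 0.428, adjusted p = 0.0013). It was the only called member, 1 of 8 in each genotype, where the backgrounds were 4.42% (*Lepr*-ctrl) and 1.42% (*Lepr*-cKO) of all genes. Healthy nerves at 4 against 2 wpc differed in *Cntf* by -0.12 (adjusted p = 0.888) and -0.47 (adjusted p = 0.56). The time points are different animals and, where they were also different library batches, time and batch cannot be told apart. The *Lepr*-ctrl call was lost with the animal as a block, at 1.28 on the log2 scale (adjusted p = 0.0939), with no expression filter (1.47, adjusted p = 0.0644) and in 7 of 19 fits that left out 1 library, while the *Lepr*-cKO call held in every alternative that kept the gene.

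Since most of the *Cntf* exon sequence is shared, *Zfp91*, a ubiquitin ligase gene of 239380 counts over all libraries against 5623 for *Cntf*, is given beside it. *Zfp91* was lower in injured nerves by far less, with log2 fold changes of -0.82 (adjusted p = 9.37e-08) and -0.66 (adjusted p = 2.01e-06) at 2 wpc and -0.26 (adjusted p = 0.0499) and -0.51 (adjusted p = 0.000533) at 4 wpc, *Lepr*-ctrl first each time. The difference between the injury effects at 4 and 2 wpc in *Zfp91* was 0.555 in *Lepr*-ctrl mice (adjusted p = 0.0255), which passed the adjusted p but not the fold limit. In *Lepr*-cKO mice it was 0.158 (adjusted p = 0.724). How the counting divided reads between both genes was not given. The summed level of 6 markers of myelinating Schwann cells was also lower in injured nerves. Healthy *Lepr*-ctrl libraries held 88880 to 112300 CPM. Injured ones held 9687 to 49290 CPM (median 34240) at 2 wpc and 23800 to 32430 CPM (median 29770) at 4 wpc. The median of the injured *Lepr*-ctrl libraries was thus lower at 4 than at 2 wpc, whereas that of *Cntf* was higher. In *Lepr*-cKO mice healthy libraries held 80890 to 112100 CPM of these markers. Injured ones held 15540 to 46980 CPM (median 29270) at 2 wpc and 29520 to 75000 CPM (median 57140) at 4 wpc. The part of these markers in the result was not tested.

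*Lif* (ENSMUSG00000034394, chromosome 11, 4257557 to 4272514, plus strand) encodes leukemia inhibitory factor. At 2 wpc the healthy *Lepr*-ctrl libraries held 16.3, 16.5, 16.99, 18.1 and 19.5 CPM and the injured ones 5.93, 6.19, 6.60, 8.64 and 11.97 CPM. No injured library reached the lowest healthy one, and *Lif* fell by 1.15 on the log2 scale (SE 0.187, adjusted p = 2.19e-06). *Lepr*-cKO nerves went from 11.5 to 18.8 CPM (median 17.5, n = 6) to 6.22 to 9.65 CPM (median 7.38, n = 5), a fall of 1.13 (SE 0.181, adjusted p = 1.68e-06). At 4 wpc healthy *Lepr*-ctrl libraries held 21.7, 23.3, 23.8, 25.3 and 27.4 CPM and injured ones 7.32, 8.99, 9.58 and 14.4 CPM, and the log2 fold change was -1.27 (SE 0.204, adjusted p = 2e-06). At 4 wpc in *Lepr*-cKO mice 17.6, 20.0, 21.5, 24.1 and 26.6 CPM stood against 5.63, 10.2, 11.9 and 11.9 CPM, a log2 fold change of -1.15 (SE 0.202, adjusted p = 1.23e-05) that went to -0.96, just inside the fold limit, without the lowest injured library. The healthy *Lepr*-ctrl groups of 4 and 2 wpc did not overlap in *Lif*, yet their difference of 0.48 (adjusted p = 0.169) was not called, beside 0.174% of all genes called in that comparison and 0.119% in the same one of *Lepr*-cKO mice.

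*Il11* (ENSMUSG00000004371, chromosome 7, 4772373 to 4782859, minus strand) encodes interleukin 11, known for its action on fibroblasts and blood-forming cells. It was low throughout, with 37 to 118 counts in healthy and 0 to 31 counts in injured libraries. The healthy *Lepr*-ctrl libraries at 2 wpc held 2.07, 2.48, 2.58, 2.68 and 2.82 CPM, the injured ones 0.226, 0.293, 0.425, 0.665 and 1.18 CPM, and the log2 fold change was -2.19 (SE 0.376, adjusted p = 5.5e-06). In *Lepr*-cKO mice it was -2.62 (SE 0.375, adjusted p = 2.35e-07), from 2.25 to 2.71 CPM down to 0.254 to 0.576 CPM. At 4 wpc *Lepr*-ctrl nerves held 1.79 to 3.26 CPM healthy and 0.446 to 1.34 CPM injured, a log2 fold change of -1.40 (SE 0.408, adjusted p = 0.00342). *Lepr*-cKO nerves held 1.60 to 2.65 CPM healthy and 0, 0.508, 0.514 and 0.821 CPM injured, with a log2 fold change of -2.21 (SE 0.423, adjusted p = 4.33e-05). Healthy and injured libraries overlapped in none of the 4 comparisons.

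*Osm* (ENSMUSG00000058755, chromosome 11, 4236420 to 4241026, plus strand) encodes oncostatin M, known as a product of myeloid and T cells. It was near the floor in healthy nerves, with 0 to 12 counts a library. The 5 healthy *Lepr*-ctrl libraries at 2 wpc held 0.0886, 0.0890, 0.121, 0.124 and 0.273 CPM. The injured ones held 1.39, 1.96, 2.44, 2.49 and 3.13 CPM, all above the healthy ones, and the log2 fold change was 3.93 (SE 0.459, adjusted p = 4.31e-09). *Lepr*-cKO nerves at 2 wpc went from 0.0760 to 0.309 CPM to 1.22, 1.36, 1.87, 2.09 and 3.6 CPM, a log2 fold change of 3.69 (SE 0.421, adjusted p = 2.55e-09). At 4 wpc the rise was 3.69 (SE 0.485, adjusted p = 5.13e-08) in *Lepr*-ctrl nerves, whose injured libraries held 1.13, 1.73, 2.61 and 2.68 CPM. It was 3.36 (SE 0.491, adjusted p = 6.61e-07) in *Lepr*-cKO nerves, whose injured libraries held 1.17, 1.27, 1.48 and 1.58 CPM. The summed level of 6 macrophage markers rose alongside, from 75.2 to 122 CPM in healthy to 213 to 503 CPM in injured *Lepr*-ctrl nerves at 2 wpc and from 75.1 to 124.5 CPM to 381 to 697 CPM at 4 wpc. In *Lepr*-cKO nerves it went from 65.1 to 151.5 CPM to a median of 250.5 CPM and at most 377 CPM at 2 wpc, where the lowest injured library lay below the highest healthy one while the groups did not overlap in *Osm*, and from 45.3 to 103 CPM to 223 to 398 CPM at 4 wpc. The sum of 5 neutrophil markers was at most 1.06 CPM in every healthy and 1.73 CPM or more in every injured library. That of 5 T cell markers went from at most 1.17 CPM in every healthy library to 1.95 CPM or more in every injured one, and the part of these in the result was not tested.

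*Il6* (ENSMUSG00000025746, chromosome 5, 30013114 to 30019981, plus strand) encodes interleukin 6, the founding member of the family. Its counts were few. Healthy *Lepr*-ctrl libraries at 2 wpc had 1, 1, 2, 6 and 10 counts (0.0303 to 0.227 CPM) and injured ones 7, 9, 12, 13 and 23 counts (0.257 to 1.09 CPM), with a log2 fold change of 2.05 (SE 0.861, adjusted p = 0.0369). This call was lost with the animal as a block (log2 fold change 1.45, adjusted p = 0.2), without the expression filter (adjusted p = 0.0582) and without the injured library of 23 counts (1.59, adjusted p = 0.126) or any one of the 3 healthy libraries of 1 or 2 counts (adjusted p = 0.0612 to 0.0822). At 2 wpc in *Lepr*-cKO mice healthy libraries had 1, 1, 6, 6, 7 and 7 counts and injured ones 8, 10, 20, 30 and 174 counts. The log2 fold change was 3.73 (SE 0.773, adjusted p = 8.26e-05), and 1.96 (adjusted p = 0.0116) without the library of 174 counts (6.94 CPM). At 4 wpc *Il6* had 0 to 8 counts in every library, and the values of 1.23 in *Lepr*-ctrl (adjusted p = 0.335) and 1.77 in *Lepr*-cKO nerves (adjusted p = 0.242) were not called. The injured groups of 4 wpc had the lowest median depths, and their libraries held 10905806 to 25923752 counts in total.

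*Clcf1* (ENSMUSG00000040663, chromosome 19, 4214238 to 4223490, plus strand) encodes cardiotrophin-like cytokine factor 1, a ligand of the CNTF receptor. It had 2 counts in all, 1 in each of 2 injured *Lepr*-cKO libraries of 2 wpc, and was not tested. The gene shares 311 exon bases with a longer gene that the annotation runs through it, AC109138.7 (ENSMUSG00000117873), which had 0 counts. *Pold4*, a DNA polymerase subunit gene that AC109138.7 also runs over, had 0 counts in all 39 libraries too. *Clcf1* was therefore taken as not measured by these tables rather than as absent, and how overlapping genes were counted was not tested.

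The receptor chains moved little. *Il6st* (ENSMUSG00000021756, chromosome 13, 112464070 to 112510086, plus strand), the gp130 gene, had 2563 to 18895 counts a library. At 2 wpc it held 300.1 to 398 CPM in healthy and 261 to 519 CPM in injured *Lepr*-ctrl libraries, where 2 injured libraries were above all healthy ones and 3 below. The log2 fold change was 0.00 (SE 0.183, 95% confidence interval -0.37 to 0.37). In *Lepr*-cKO mice it was 0.13 (SE 0.175, adjusted p = 0.54). At 4 wpc the healthy *Lepr*-ctrl libraries held 324, 356, 373, 420.0 and 455 CPM and the injured ones 234, 241, 272 and 286 CPM. These groups did not overlap, and the log2 fold change of -0.58 (SE 0.197, adjusted p = 0.0108) passed the adjusted p but not the fold limit. At 4 wpc in *Lepr*-cKO mice 339 to 436 CPM in healthy stood against 230, 255, 273 and 428 CPM in injured libraries, with a log2 fold change of -0.41 (SE 0.196, adjusted p = 0.0736). The high injured value came from the library that was also highest in *Cntf*, and without it the log2 fold change was -0.64 (adjusted p = 0.0073). With the animal as a block it was -0.47 (adjusted p = 0.0346).

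*Lifr* (ENSMUSG00000054263, chromosome 15, 7090614 to 7197489, plus strand) encodes the partner of gp130 for LIF and CNTF. Injured libraries spread more widely than healthy ones, with 77.9 to 191 CPM against 142 to 187 CPM in *Lepr*-ctrl nerves and 79.5 to 235 CPM against 118 to 215 CPM in *Lepr*-cKO nerves at 2 wpc. The log2 fold changes were -0.30 (95% confidence interval -0.78 to 0.17) and -0.08 (-0.53 to 0.38). With the animal as a block the value in *Lepr*-ctrl nerves was -0.50 (adjusted p = 0.0479), which passed the adjusted p but not the fold limit. At 4 wpc they were 0.35 (-0.15 to 0.86) and -0.19 (-0.69 to 0.32). All 4 groups overlapped, and the unblocked intervals hold no change of the size of the fold limit.

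*Osmr* (ENSMUSG00000022146, chromosome 15, 6813577 to 6874969, minus strand) encodes the partner of gp130 for oncostatin M. The healthy *Lepr*-ctrl libraries at 2 wpc held 43.9, 52.0, 52.7, 53.5 and 55.7 CPM and the injured ones 52.8, 55.5, 75.0, 81.4 and 113 CPM. They overlapped at the edge, and the log2 fold change was 0.55 (SE 0.192, adjusted p = 0.0127). It was 0.36 (adjusted p = 0.13) with the animal as a block and 0.36 (adjusted p = 0.0943) without the highest injured library. In *Lepr*-cKO nerves at 2 wpc 43.5 to 63.0 CPM (median 51.4) stood against 52.5 to 106 CPM (median 86.3), with a log2 fold change of 0.56 (SE 0.183, adjusted p = 0.00782). At 4 wpc the *Lepr*-ctrl libraries did not overlap, with 53.5 to 72.6 CPM in healthy and 76.7, 78.8, 114 and 116 CPM in injured nerves, and the log2 fold change was 0.70 (SE 0.203, adjusted p = 0.00318). In *Lepr*-cKO nerves it was 0.39 (SE 0.203, adjusted p = 0.0988), and 0.12 (adjusted p = 0.639) without the highest injured library. None of these passed the fold limit. By the adjusted p alone, 63.9%, 65.1% and 63.6% of all genes passed in the 3 comparisons in which *Osmr* did, and 55.3% in *Lepr*-cKO nerves at 4 wpc.

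In the 17 animals with both nerves the direction was also counted within the animal. *Osm* was higher in the injured nerve of 17 of 17 animals, and *Cntf*, *Lif* and *Il11* were lower in 17 of 17. Healthy and injured groups of these genes did not overlap, so these counts follow from the group values and add no separate support. *Osmr* was higher in 16 of 17 and *Il6* in 14 of 17. *Il6st* was lower in 11 of 17, among them all 4 *Lepr*-ctrl animals at 4 wpc, and *Lifr* in 12 of 17, among them all 4 *Lepr*-ctrl animals at 2 wpc.

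**Figure D3:**
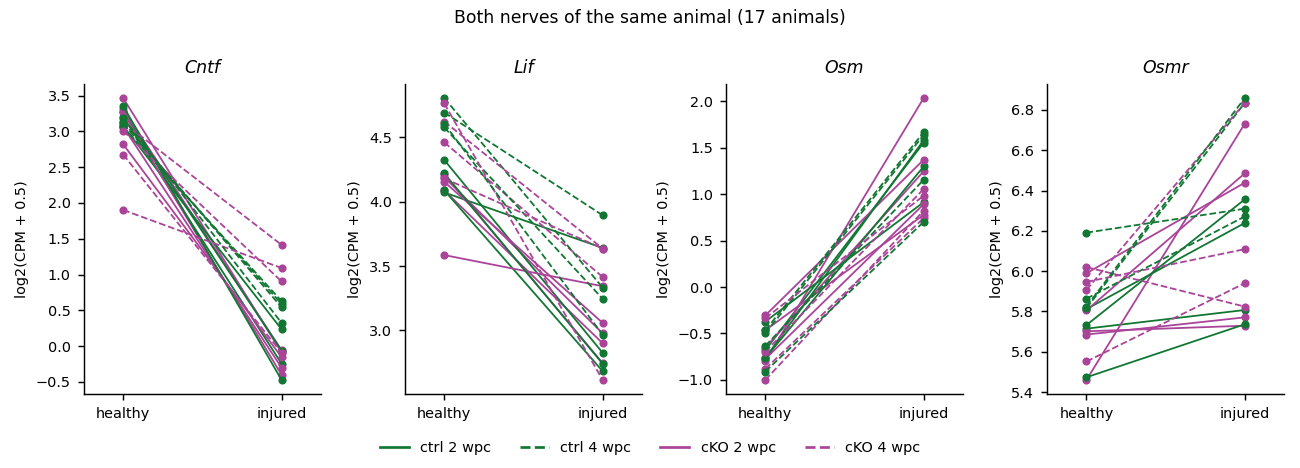
Log2 of CPM plus 0.5 (vertical axis) in the healthy and the injured nerve of each of 17 animals for 4 genes, with 1 line per animal, green for *Lepr*-ctrl, purple for *Lepr*-cKO, solid for 2 wpc and dashed for 4 wpc. Every line falls for *Cntf* and *Lif* and rises for *Osm*, and 16 of 17 rise for *Osmr*.

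The question of the study's design, whether deletion of *Lepr* in Schwann cells altered the nerve's response, was put to these genes by comparing genotypes. In injured nerves, 0 of 8 members were called by edgeR at 2 wpc, where 0.569% of all genes were, and 0 of 8 at 4 wpc, where 0.45% were. These shares depend on the spread shared by all groups, since a fit of only the groups compared called 0 genes at either time. The share at 2 wpc also includes the 6 skeletal muscle genes, all called higher in *Lepr*-cKO nerves (median log2 fold change 10.25). The library rich in skeletal muscle genes belongs to that group, and its part in the 0.569% was not tested. In healthy nerves 0 of 8 were called at either time, beside 0.00542% of all genes at each. DESeq2 also called 0 in all 4 comparisons. The unadjusted p of edgeR was under 0.05 for 1 member in injured nerves at 2 wpc and for 0 in the other 3 comparisons. Of all 18442 genes it was so for 1187 and 3667 in injured nerves at 2 and 4 wpc. In healthy nerves it was so for 222 and 346. The genotype difference in the injury effect was called for 0 of 8 members and 0% of all genes at 2 and at 4 wpc. Its unadjusted p was under 0.05 for 1 member, *Cntf* at 4 wpc, beside 797 of all genes at 2 wpc and 2013 at 4 wpc.

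For *Lif*, *Il6st*, *Osmr* and *Lifr* the intervals in injured nerves lay inside the fold limit at both times. *Lif* in injured *Lepr*-cKO against *Lepr*-ctrl nerves differed by -0.05 on the log2 scale at 2 wpc (95% confidence interval -0.43 to 0.33) and by -0.03 at 4 wpc (-0.46 to 0.40). *Il6st* differed by 0.12 (-0.25 to 0.49) and 0.20 (-0.22 to 0.62), and *Osmr* by 0.04 (-0.35 to 0.43) and -0.36 (-0.80 to 0.07). The value of *Osmr* at 4 wpc depended on single libraries. Over 8 fits that each left out 1 library it ranged from -0.64 to -0.26. The adjusted p of these fits ranged from 0.0456 to 0.614, and 0 passed both limits. *Lifr* differed by 0.16 (-0.32 to 0.64) and -0.43 (-0.96 to 0.10). For *Osm* the differences were -0.16 (-0.93 to 0.60) and -0.56 (-1.46 to 0.33), and the second interval reached beyond the fold limit.

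The widest intervals belonged to the genes of few counts. *Il6* in injured nerves at 2 wpc had the only unadjusted p under 0.05 of the 4 genotype comparisons, with a difference of 1.84 (95% confidence interval 0.33 to 3.36, adjusted p = 0.577), and without the library of 174 counts it was 0.07 (adjusted p = 0.995). *Il11* in injured nerves at 4 wpc differed by -0.93 (-1.87 to 0.02, adjusted p = 0.26). *Cntf* there differed by 0.58 (-0.15 to 1.31, adjusted p = 0.369), and its injury effect at 4 wpc was less negative in *Lepr*-cKO mice by 0.97 (0.05 to 1.88, adjusted p = 0.439). A p that misses the threshold does not show that the genotypes were alike.

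**Figure D4:**
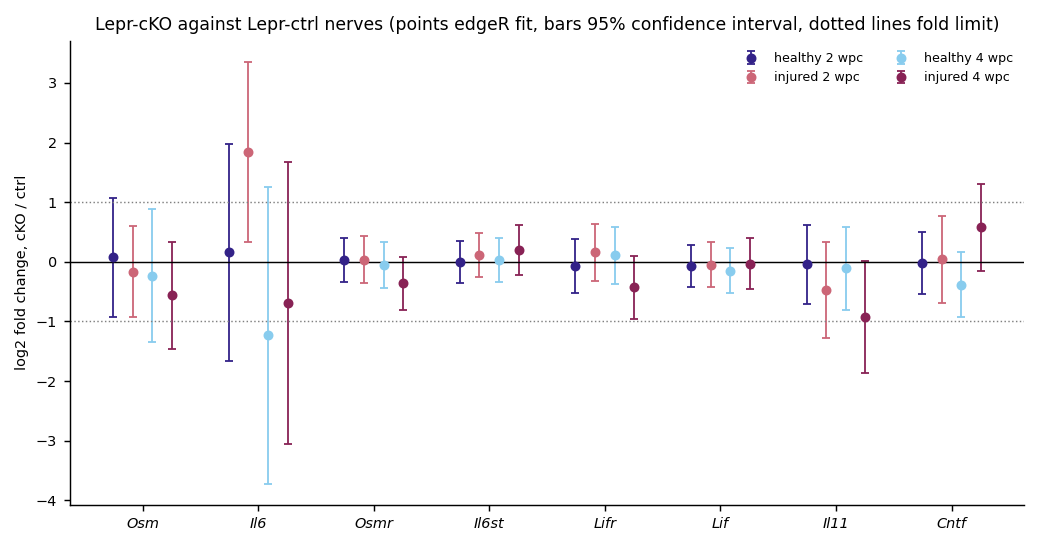
Genotype difference as a log2 fold change, *Lepr*-cKO over *Lepr*-ctrl (vertical axis), for the 8 tested genes (horizontal axis) in healthy and injured nerves at 2 and 4 wpc, with points for the edgeR estimate, bars for its 95% confidence interval and dotted lines for the fold limit. The intervals of *Lif*, *Il6st* and *Osmr* lie within the fold limit in all 4 comparisons, and those of *Il6* are the widest.

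The other genes of the pathway were described by lists. Of 4 further ligands and ligand subunits, 2 could be tested. *Ctf1*, the gene of cardiotrophin 1, was lower in all 4 injury comparisons, with log2 fold changes of -1.28 and -1.09 at 2 wpc and -1.94 and -1.26 at 4 wpc, *Lepr*-ctrl first each time. *Ebi3*, a subunit of interleukin 27, was called higher in 3 of 4 comparisons and at 2 wpc in *Lepr*-cKO mice passed the adjusted p alone (0.86, adjusted p = 0.0207), and was called there without the library rich in skeletal muscle genes, at 1.02 (adjusted p = 0.00799). *Ctf2* and *Il27* had at most 14 and 12 counts a library and were not tested.

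Of 6 ligand-binding and other receptor chains, 5 were tested, and *Il11ra2* had 0 counts in every library. *Il6ra*, the IL-6 binding chain, was lower in all 4 comparisons and called in 3 of 4, and its -0.99 in *Lepr*-ctrl nerves at 2 wpc (adjusted p = 7.17e-05) lay just inside the fold limit. Its call in *Lepr*-cKO nerves at 2 wpc (-1.02) was lost without the library rich in skeletal muscle genes (-0.92, adjusted p = 0.000219). *Il27ra* rose in all 4, by 1.83 to 2.86. *Il31ra*, the partner of OSMR for interleukin 31, rose at 2 wpc by 3.09 in *Lepr*-ctrl (adjusted p = 0.00396) and 2.61 in *Lepr*-cKO mice (adjusted p = 0.00804). Its counts were few, with 0 to 4 in healthy and 3 to 22 in injured *Lepr*-ctrl libraries at 2 wpc. In *Lepr*-cKO libraries they were 0 to 5 and 2 to 23. *Cntfr*, the binding chain for CNTF and CLCF1, was not called in any comparison (-0.56 to 0.15), and *Il11ra1* passed only the adjusted p at 4 wpc (0.95 and 0.71).

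The kinases and transcription factors below the receptors that are described here, and the phosphatase SHP2 (*Ptpn11*), were not called. Beside 34.1%, 34.3%, 36% and 27.6% of all genes, of 7 genes (*Jak1*, *Jak2*, *Tyk2*, *Stat3*, *Stat5a*, *Stat5b* and *Ptpn11*), 0 passed both limits in each of the 4 injury comparisons by edgeR, and by the adjusted p alone 4, 4, 3 and 3 did in one direction or the other, where 63.9%, 65.1%, 63.6% and 55.3% of all genes did. *Stat3* itself held 141 to 168.1 CPM in healthy and 164 to 193 CPM in injured *Lepr*-ctrl nerves at 2 wpc, a log2 fold change of 0.19 (adjusted p = 0.0882). RNA levels say nothing of STAT3 phosphorylation.

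Of 8 brakes of the pathway 5 were called higher in *Lepr*-ctrl and 6 in *Lepr*-cKO nerves at 2 wpc and 4 in each genotype at 4 wpc, with 0 called lower, beside 19.8%, 20.9%, 20.1% and 16.8% of all genes called higher. The list's median was 1.92, 1.55, 1.01 and 1.14 on the log2 scale. *Socs2* rose by 2.51 to 3.62, *Cish* by 2.06 to 3.11, and *Ptpn6*, the phosphatase SHP-1 of blood-borne cells, by 2.496 to 3.32. *Socs3*, the brake that binds gp130, was called only in *Lepr*-cKO nerves at 2 wpc (1.05, adjusted p = 2.06e-05) and was at 0.85 (adjusted p = 0.000625) in *Lepr*-ctrl nerves, and whether the genotypes differed was tested by the interaction, which was not called (adjusted p = 0.999). *Pias1*, an inhibitor of activated STAT, was lower by the adjusted p in all 4 (-0.52 to -0.23).

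Of 12 genes known to be induced by STAT3, 9 were called higher in *Lepr*-ctrl and 8 in *Lepr*-cKO nerves at 2 wpc and 9 in each genotype at 4 wpc, and 0 lower, beside 19.8%, 20.9%, 20.1% and 16.8% of all genes called higher. Their median was 1.87, 1.79, 1.47 and 1.42. *Timp1*, an inhibitor of matrix proteases, rose by 3.69 to 4.602, *Cebpb* by 2.00 to 2.65 and *Bcl3* by 2.03 to 2.74. *Bcl6* was lower by the adjusted p in all 4 (-0.75 to -0.56), and *Lcn2* was not called (-0.67 to 0.43). Many of these genes are also expressed by macrophages and respond to other factors, and the part of the macrophage markers, whose sums are given with *Osm*, in the counts of STAT3-induced genes and of brakes was not tested. Without the library rich in skeletal muscle genes at 2 wpc or the one highest in repair markers at 4 wpc, both alternatives added after seeing the data, the counts of brakes and STAT3-induced genes stayed at 6 and 8 and at 4 and 9. Without the former, the further ligands called higher went from 0 to 1 and the receptor chains called lower from 1 to 0.

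**Figure D5:**
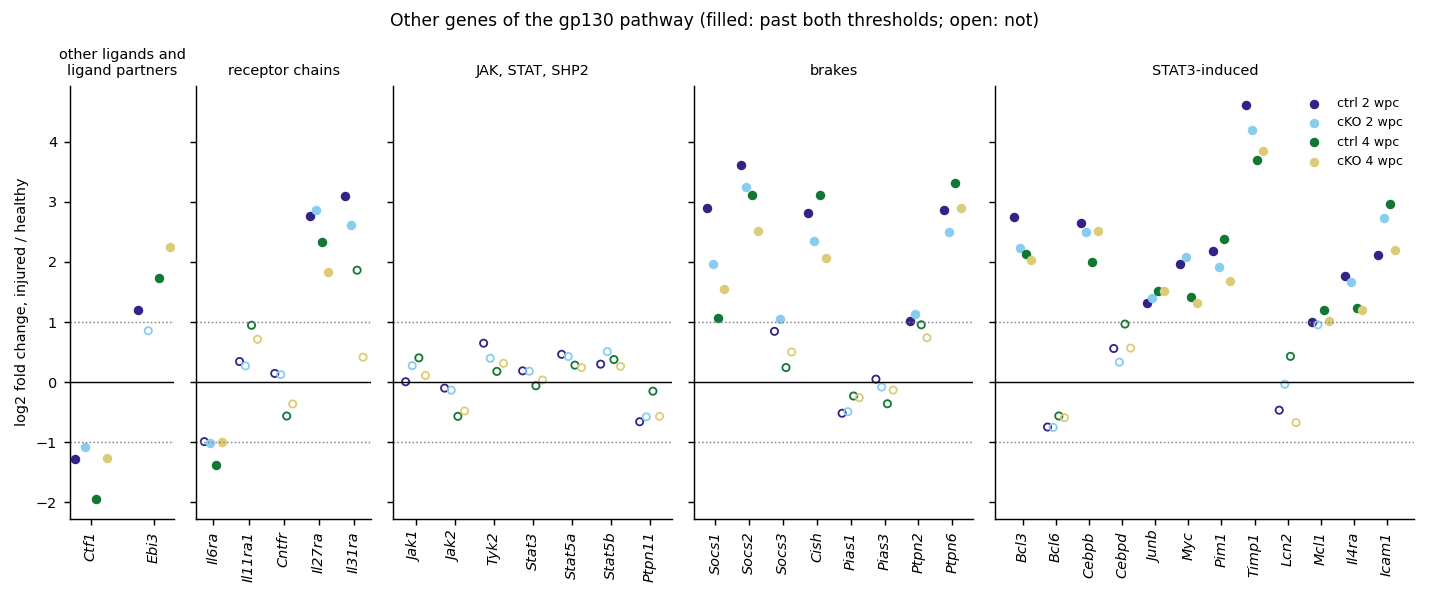
Log2 fold change of injured against healthy nerves (vertical axis) for the tested genes of 5 pathway lists (horizontal axis) in 4 comparisons by genotype and time, filled where both limits were passed and open where not. Most brakes and STAT3-induced genes lie above 1, and all kinases and STATs lie between the dotted lines of the fold limit.

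The genes whose levels followed each member most closely over the 8 groups were named by the smallest root mean square difference of the centred log2 CPM of the group means, among 12104 protein-coding genes. For *Osm* these were *Slfn2*, *Smim3* and *Itgam* (differences of 0.13, 0.15 and 0.17 against a profile range of 3.75). For *Cntf* they were *Wdr72*, *Tmem229a* and *Cyb5r2* (0.17, 0.20 and 0.22, range 4.63), and for *Lif* *Stk10*, *Hip1r* and *Tln1* (0.07, 0.08 and 0.09, range 1.68). For *Osmr* they were *Zcchc24*, *Cyb5rl* and *Pkig* (0.05 each, range 0.88), for *Il6st* *Tmem43*, *Rrm1* and *Pde8b* (range 0.61), for *Lifr* *Tmem29*, *Bhlhb9* and *Zfp229* (range 0.43), for *Il11* *Adcy9*, *Phospho1* and *Fbxl21* (range 2.75) and for *Il6* *Slc4a7*, *Klf2* and *Prc1* (range 3.18). With a prior count of 0.5 in place of 2 the 3 genes were the same for *Lif*, *Il6st*, *Lifr* and *Osmr*, while *Cntf* kept *Tmem229a* and *Cyb5r2*, *Il11* kept *Adcy9*, and *Osm* and *Il6* kept none.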

How the data were processed

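Bulk RNA-seq of sciatic nerve endoneurium was analyzed from 39 deposited tables of raw counts per gene. Per the labels and the study's methods, the authors sequenced single reads of 50 bases, mapped these to GRCm38 using STAR 2.5 with up to 2 mismatches, and obtained counts with featureCounts 1.5.0-p1, after bcl2fastq 2.20.0.422. The use of strand and of reads with several alignments is not given in the sources used here, so overlapping and duplicated genes are uncertain. The deposited counts are neither normalized nor filtered.

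Sample titles gave each library's genotype, nerve, time and animal. Main results came from edgeR 4.0.16 in R 4.3.3, with TMM scaling and the quasi-likelihood F test, after genes were filtered by filterByExpr (min.count 10, min.total.count 15). This left 18442 genes, fitted over all 39 libraries at once, with p-values adjusted by Benjamini-Hochberg. A 95% confidence interval is the estimate plus or minus the t quantile times the SE, which came from the F statistic. CPM use TMM-scaled library sizes over the tested genes, and RPKM divide them by the summed exon length. In the smallest library a floor of 3 counts is 0.282 CPM, which covers counting error only. Symbols came from GENCODE mouse release 21 on the same build, and promoter windows from RefSeq on GRCm38.p6. The fit was tested on simulated data with known changes. Figures were drawn with matplotlib 3.10.9.

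The members, the gene lists and the motifs were chosen with earlier results of these data known. All 9 members are named, and genes of the lists may be named beside their list's counts. The 3 most alike genes of a member are the protein-coding tested genes (average log2 CPM above 1) with the smallest root mean square difference of the centred profile. Both nerves of 17 animals carry the same animal number in the titles. Over 5000 genes, each animal's 2 libraries departed from their group means with a correlation of -0.116 to 0.567 (median 0.333), above 0.1 in 14 of 17 animals, and a fit blocked on the animal was an alternative. Further alternatives were DESeq2 1.42.0, its size factors within edgeR, omission of mitochondrially encoded genes, no filter on low counts, a minimum of 10 counts in all libraries, a fit of only the groups compared, an adjusted p without the fold limit, and single libraries omitted. Some genes of the pathway lists are not reported here.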

Additional observations from a re-analysis of the deposited data

Results flagged for a closer look

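In 65 sets of 4 to 6 libraries of a member in a group, 5 held a library far from the others by Dixon's test on the CPM, and chance alone flags about 1 in 20 sets. *Il6* was highest in 1 injured *Lepr*-cKO nerve at 2 wpc (6.94 CPM, next 0.848 CPM) and in 1 injured *Lepr*-ctrl nerve at 2 wpc (1.09 CPM, next 0.457 CPM). *Lif* was lowest in the healthy nerve of the same *Lepr*-cKO animal that was highest in *Il6* (11.5 CPM, next 16.5 CPM). *Osm* was highest in 1 healthy *Lepr*-ctrl nerve at 2 wpc (0.273 CPM, next 0.124 CPM, 12 counts). *Osmr* was highest in 1 healthy *Lepr*-ctrl nerve at 4 wpc (72.6 CPM, next 57.7 CPM).

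The injury effect on *Cntf* differed between 4 and 2 wpc by a test of the difference itself, by 1.49 on the log2 scale in *Lepr*-ctrl and by 2.39 in *Lepr*-cKO mice.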

How the results depend on the processing

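No direction of a called member changed under any alternative. Of the counts of called members under alternatives, 233 were equal to the reported count or within 1.5 times of it and 15 were not. The 233 include the genotype comparisons, where a count of 0 stood against a reported count of 0. With at least 10 counts in every library, which keeps *Lif*, *Il6st*, *Lifr* and *Osmr* alone, 1 member was called in each injury comparison (*Lif*) and 0 in the difference between 4 and 2 wpc in either genotype. With no expression filter, and with the animal as a replicate block, the difference between 4 and 2 wpc in *Lepr*-ctrl mice had 0 called members, as *Cntf* was no longer called. The block also ended the call of *Il6* in *Lepr*-ctrl nerves at 2 wpc (log2 fold change 1.45, adjusted p = 0.2) and changed no other call by both limits. By the adjusted p alone it ended that of *Osmr* in *Lepr*-ctrl nerves at 2 wpc and added those of *Lifr* there and of *Il6st* in *Lepr*-cKO nerves at 4 wpc. With each library left out, the members called were 4 to 5 in *Lepr*-ctrl and 5 to 5 in *Lepr*-cKO nerves at 2 wpc, 4 to 4 and 3 to 4 at 4 wpc, 0 to 1 for the difference between time points in *Lepr*-ctrl and 1 to 1 in *Lepr*-cKO mice, and 0 in the genotype comparisons. With an adjusted p alone, *Osmr* was also called in 3 injury comparisons and *Il6st* in 1. Leaving out mitochondrially encoded genes moved the median of all genes from 0.10 to 0.14 in *Lepr*-cKO nerves at 2 wpc, and no member's call changed. *Il6*, *Osm* and *Il11*, and *Il31ra* among the pathway lists, had few counts, which limits the precision of their folds.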
